A study of Drosophila melanogaster with 9 samples.

Results

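Aminoacyl-tRNA synthetases were followed in wing pouches of Drosophila melanogaster larvae in which hairpin RNAs against the noncoding RNA CR32027 were expressed. The genes were chosen by symbol: a three-letter amino acid name followed by RS, with an optional alpha or beta prefix or the suffix -m for a mitochondrial form, and GluProRS. Of 35 symbols that meet this rule, 33 had a row by gene identifier among the 15682 genes of the deposited table, 19 cytosolic and 14 mitochondrial. Genes without the suffix are called cytosolic here, whether or not their enzymes also serve mitochondria. LeuRS and PheRS-m were not analysed here.

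Each synthetase joins 1 amino acid to the tRNAs that carry it, and so supplies the ribosome with charged tRNA. Fly cells use separate genes for cytosolic and mitochondrial translation for many amino acids, and the mitochondrial enzymes are made from nuclear genes and imported. Synthetases fall into class I and class II by the fold of the catalytic domain. In animal cells several cytosolic synthetases assemble into a multisynthetase complex with the scaffold proteins AIMP1, AIMP2 and AIMP3. Growing tissue such as the wing disc depends on them for protein synthesis, and in mammals many are induced by the amino acid stress factor ATF4, called crc in the fly.

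RNA came from wing discs of wandering male larvae raised at 25 °C, 30 discs with the nota cut away, leaving mainly the pouch that makes the wing blade. There were 3 genotypes with 3 libraries each. All larvae had mothers of the stock w1118, Bx-GAL4; UAS-dicer2 (Bloomington 25706), so GAL4 active in the pouch and extra Dicer-2 were present in controls as well. Fathers were OreR wild type in the controls, the hairpin stock CR32027-IR1 (VDRC 26860) or the hairpin stock CR32027-IR2 (VDRC 103512), and each hairpin is represented by this 1 stock. Males take their X chromosome from the mother, so the 4 X-linked genes of the group, ArgRS, LysRS, HisRS and alpha-PheRS, came from the driver stock in every genotype. The autosomal genes have a paternal copy from a stock that differed between the genotypes. Hairpin and paternal background therefore cannot be told apart in any of the comparisons.

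The libraries held 25070343 to 36512316 reads, as recovered from the steps between low values. RPKM (reads per kilobase of gene model, scaled to library size) was the deposited unit, and a gene was called changed at an adjusted p under 0.05 in limma on log2(RPKM + 1), fitted over the 7437 genes that averaged 1 RPKM or more. CR32027 itself was listed at 2.38, 3.30 and 2.53 RPKM for OreR, at 4.46, 3.34 and 2.93 under the CR32027-IR1 label (adjusted p = 0.348) and at 0.408, 1.12 and 1.19 for CR32027-IR2 (adjusted p = 0.0171). Levels with ± are the mean and SD of 3 libraries, and ± after a log2 change gives its standard error from limma. The target RNA was thus not lower under the CR32027-IR1 label than in OreR, and directions for those libraries rest on the label. The labels do not say whether the 3 libraries of a genotype stem from different crosses. The spread behind each p-value is that between these libraries and may be technical. Summed wing pouch markers (nub, vg, Dll and pdm2; rn had no row) were 40.8 to 42.6 RPKM in OreR, 39.3 to 40.9 in CR32027-IR2 and 35.1 to 37.5 in the CR32027-IR1-labelled libraries. Summed notum and hinge markers (all 5 matched) were 46.0 to 57.0, 54.2 to 58.4 and 53.1 to 63.8 RPKM in the same order. The 4 genes listed as neuron and glia markers (elav, repo, nrv2 and moody) summed to 29.7 to 32.5, 40.0 to 43.6 and 39.4 to 43.1. Which of these genes made up the sum is not given here, so it is not taken as a measure of neurons and glia. Muscle precursor markers summed to 0.929 to 1.41 RPKM and hemocyte markers to 0.438 to 3.86 over the 9 libraries, and the 2 tracheal markers matched summed to 4.54 to 5.18 in OreR and 3.25 to 3.96 in the other libraries. The part of these differences in the results below was not tested, and in bulk tissue fewer cells of a type and less RNA per cell cannot be told apart.

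All 33 synthetase genes passed the filter on low values. The lowest value rested on 112 reads, for the mitochondrial GluRS-m in 1 library, and the highest on 14960. In OreR the cytosolic genes had a median of 50.1 RPKM, from HisRS at 16.7 to SerRS at 112, and the mitochondrial genes a median of 7.21, from MetRS-m at 2.25 to AspRS-m at 25.7. These RPKM values divide reads by a length that lay within 2% of the genomic span for 26 of the 33 genes, introns included. Levels of different genes were therefore also expressed as recovered reads per exonic kilobase scaled to library size, with exons from the BDGP6 annotation. On that exonic scale AspRS, the aspartyl enzyme, was highest at 121 ± 2.61 in OreR although its deposited value was 44.6 ± 0.958 RPKM, since its 6165-base span on chromosome 2R holds 2266 exonic bases. An antisense RNA, asRNA:CR45141, covers 1448 of those exonic bases and was not analysed here. AspRS also shares 154 exonic bases with asRNA:CR43468 on the same strand, listed at 2.07 RPKM in OreR, and 127 with Nmda1 on the other strand, at 24.2 RPKM, and their part in the AspRS level was not tested. AlaRS followed at 118 ± 4.52 per exonic kilobase, which does not differ from AspRS beyond the spread, and SerRS stood next at 112 ± 2.07. At the low end of the cytosolic genes stood HisRS at 29.5 ± 1.28 and ValRS at 28.0 ± 0.606.

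The mitochondrial genes lay below the cytosolic ones, with 1 overlap on the exonic scale. AspRS-m, the mitochondrial aspartyl enzyme, reached 29.2 ± 2.11 per exonic kilobase, which does not differ beyond its spread from HisRS and ValRS. SerRS-m followed at 23.0 ± 2.17, and the other 12 mitochondrial genes lay between 2.74 ± 0.296 for GluRS-m and 10.5 ± 0.488 for ProRS-m. The ratio of the cytosolic median to the mitochondrial median was 6.91 ± 0.376 in RPKM and 7.52 ± 0.542 per exonic kilobase in OreR (n = 3). For the same amino acid the exonic ratio ran from 3.77 for the cysteine pair to 21.4 for GluProRS over GluRS-m. If the authors also counted intronic reads, the exonic scale overstates genes with long introns. For 7 genes (ThrRS, TrpRS, MetRS, CysRS-m, MetRS-m, SerRS-m and ValRS-m) the length behind the deposited value was more than 2% away from the BDGP6 span, so their exonic levels are the least certain.

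**Figure D1:**
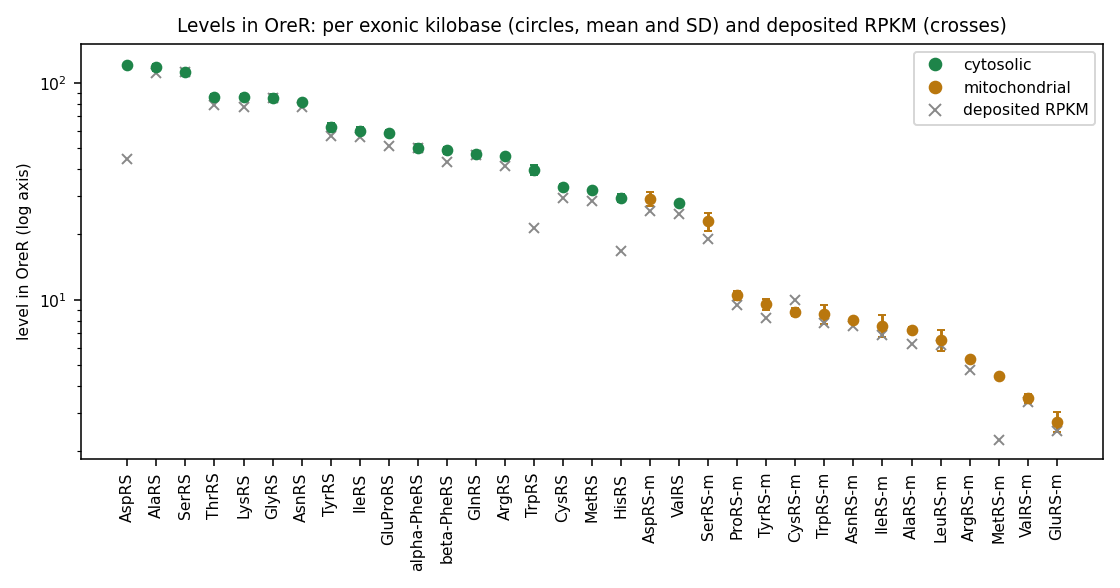
Level of each synthetase gene in OreR on a log axis, as reads per exonic kilobase scaled to library size (circles with mean and SD of 3 libraries, green cytosolic, orange mitochondrial) and as deposited RPKM (crosses). Cytosolic genes run from 28.0 to 121 on the exonic scale, and among mitochondrial genes AspRS-m at 29.2 reaches into that range.

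Summed over the group, cytosolic synthetases took 3159, 3227 and 3296 reads in 1000000 in the OreR libraries, 3381, 3335 and 3330 with CR32027-IR2 and 3064, 3109 and 3110 in those labelled CR32027-IR1. The 3 genotypes did not overlap in this sum, CR32027-IR2 being highest and the CR32027-IR1-labelled libraries lowest. Mitochondrial synthetases took 382 to 389 reads in 1000000 in OreR, 374 to 380 in CR32027-IR2 and 373 to 402 in the CR32027-IR1-labelled libraries, which span the other 2 ranges. These sums weigh the abundant genes most and carry no test.

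The first comparison asked which synthetase genes differed between the CR32027-IR1-labelled libraries and OreR. The cytosolic genes MetRS, alpha-PheRS and GluProRS were lower, and the mitochondrial genes AsnRS-m and GluRS-m were higher. Of all genes tested 13.7% were called in this comparison (7.61% lower and 6.09% higher), against 3 of 19 cytosolic and 2 of 14 mitochondrial synthetases. Those shares, 15.8% and 14.3%, are near the background, so the count by itself does not set the synthetases apart. The cytosolic count was 5 when CR32027-IR1 replicate 2 or 3 was omitted. The median log2 change was -0.06 for the cytosolic genes, 0.06 for the mitochondrial ones and 0.01 for all genes.

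MetRS, which charges methionine tRNAs including the initiator and belongs to the multisynthetase complex, was 27.7, 28.9 and 28.7 RPKM in OreR and 22.1, 22.6 and 21.2 in the CR32027-IR1-labelled libraries. In CR32027-IR2 it was 31.2, 29.8 and 32.5 RPKM. The 3 genotypes did not overlap, with the lowest values in the CR32027-IR1-labelled libraries. Its level there was 77.3% of that in OreR, or -0.36 on the log2 scale with a standard error of 0.0483 (adjusted p = 0.00210 in limma). MetRS lies on chromosome 2R from 18846858 to 18850599 (BDGP6, minus strand) and overlaps no other annotated gene.

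The alpha and beta subunits together make the cytosolic phenylalanine enzyme, and the alpha subunit carries its catalytic site. alpha-PheRS was 52.4, 48.6 and 49.3 RPKM in OreR, 41.6, 38.3 and 42.6 in the CR32027-IR1-labelled libraries and 49.1, 50.1 and 52.2 in CR32027-IR2. The CR32027-IR1-labelled libraries were all below the other 6, which overlapped each other. The log2 change from OreR was -0.29 ± 0.0534 (limma, adjusted p = 0.00843). beta-PheRS was 42.5, 44.7 and 42.0 RPKM in OreR and 43.0, 42.7 and 43.5 in the CR32027-IR1-labelled libraries, a log2 change of 0.00 (95% interval -0.09 to 0.09; adjusted p = 1.000). Per exonic kilobase the ratio of alpha to beta was 1.09, 0.959 and 1.04 in OreR, 1.07, 1.04 and 1.10 in CR32027-IR2 and 0.854, 0.792 and 0.863 in the CR32027-IR1-labelled libraries. The subunit transcripts were thus near parity in 6 libraries and alpha was the lower one in the other 3, a difference between subunits that was not tested. alpha-PheRS is a single-exon gene on the X chromosome, from 8143904 to 8145602 on the minus strand (BDGP6), and beta-PheRS lies on 3R from 24250460 to 24252679.

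**Figure D2:**
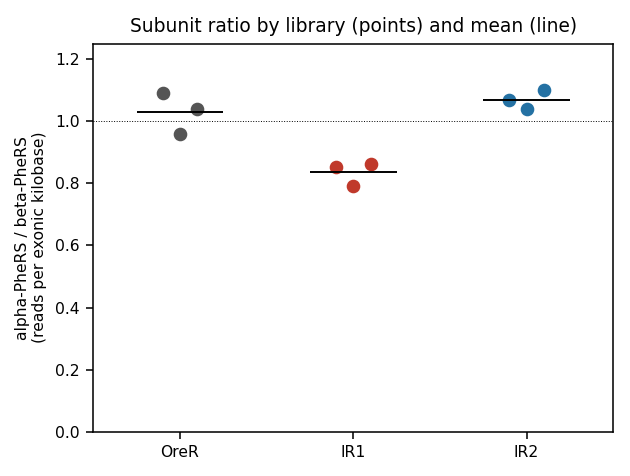
Ratio of alpha-PheRS to beta-PheRS, in reads per exonic kilobase, for each library (points) with the genotype mean (line); the dotted line marks equal levels, and IR1 and IR2 stand for the CR32027-IR1 and CR32027-IR2 labels. The 3 libraries labelled CR32027-IR1 lie between 0.792 and 0.863, below the other 6.

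GluProRS encodes the bifunctional enzyme for glutamate and proline, the only one that joins a class I and a class II domain in 1 protein. It was 49.8, 51.0 and 52.4 RPKM in OreR, 44.6, 44.6 and 42.1 in the CR32027-IR1-labelled libraries and 51.5, 49.8 and 49.1 in CR32027-IR2. Again the CR32027-IR1-labelled libraries were below all others. The log2 change from OreR was -0.22 ± 0.0436 (limma, adjusted p = 0.0118), and 905 of its exon bases on 3R are shared with an antisense RNA, asRNA:CR46092, that was not analysed here. GluProRS missed the threshold when replicate number was fitted as a block (limma, adjusted p = 0.0520). With MetRS it made 2 called genes among the 7 members of the multisynthetase complex that were measured (ArgRS, AspRS, GlnRS, GluProRS, IleRS, LysRS and MetRS), or 28.6%, against 13.7% of all genes tested. The other 5 had log2 changes from -0.08 for IleRS to 0.03 for AspRS, with adjusted p of 0.374 or more. A count of 2 genes does not set the complex apart.

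AsnRS-m, the mitochondrial asparagine enzyme, was 7.45, 7.60 and 7.59 RPKM in OreR and 9.51, 9.22 and 9.50 in the CR32027-IR1-labelled libraries. In CR32027-IR2 the values were 6.96, 6.83 and 6.98 RPKM. The replicates lay close together and the genotypes did not overlap. The log2 change from OreR was 0.29 ± 0.0458 (limma, adjusted p = 0.00445), on a gene at 2R from 17001994 to 17003599 that shares 37 exon bases with NiPp1 on the other strand. NiPp1 itself was at 24.9 RPKM against 22.5 in OreR (log2 change 0.14; limma, adjusted p = 0.118). Against CR32027-IR2, where NiPp1 was at 21.1 RPKM, it was called higher (log2 difference 0.23; limma, adjusted p = 0.0158). The part of NiPp1 in the AsnRS-m value was not tested.

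GluRS-m, the mitochondrial glutamate enzyme and the least abundant member per exonic kilobase in OreR and CR32027-IR2, was 2.69, 2.17 and 2.55 RPKM in OreR, 3.36, 3.16 and 3.55 in the CR32027-IR1-labelled libraries and 2.47, 2.92 and 2.43 in CR32027-IR2. The CR32027-IR1-labelled libraries were above all others, and OreR and CR32027-IR2 overlapped. The log2 change from OreR was 0.33 ± 0.0863 (limma, adjusted p = 0.0349). Omitting CR32027-IR1 replicate 1 (adjusted p = 0.0947), CR32027-IR1 replicate 3 (0.0775) or CR32027-IR2 replicate 1 (0.0507) ended this call. So did omitting OreR replicate 2 (0.121) or OreR replicate 3 (0.0702). Fits with no filter (0.0610), with only these genotypes (0.0660) or with replicate number as a block (0.0912) ended the call as well. On 3L, 171 bases separate GluRS-m from TyrRS on the same strand, and 95 of its exon bases also belong to Serinc on the opposite one. Serinc, a membrane protein gene, went from 27.1 to 33.4 RPKM (log2 change 0.29; adjusted p = 0.0121) and TyrRS from 56.6 ± 2.67 to 64.2 ± 3.49 (0.18; adjusted p = 0.0543). Whether the authors counted by strand is not stated, so reads of the overlap may count for either gene.

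**Figure D3:**
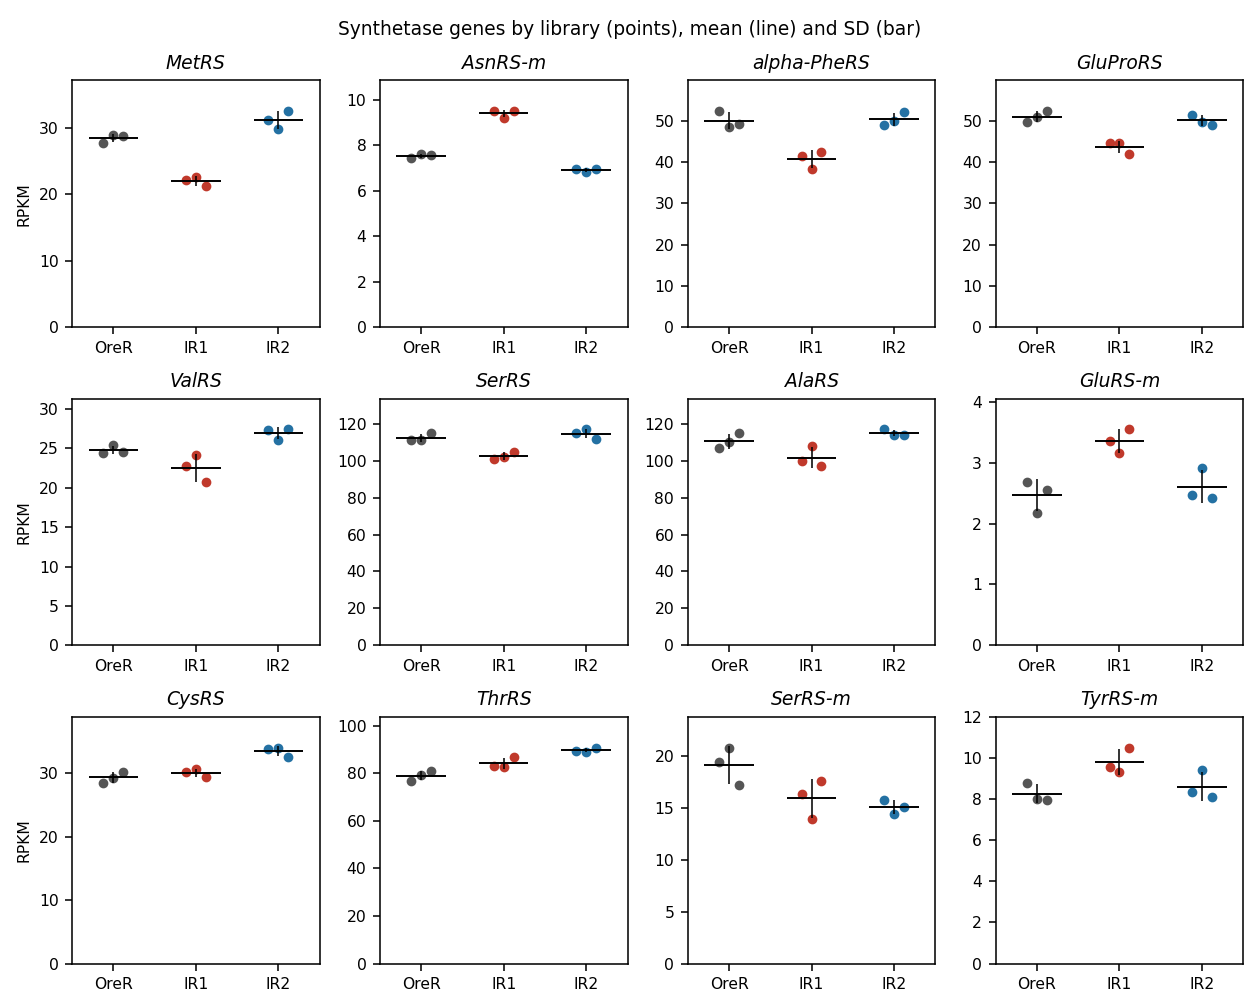
RPKM of 12 synthetase genes in each library (points), with the mean (line) and SD (bar) of 3 libraries per genotype; IR1 and IR2 stand for the CR32027-IR1 and CR32027-IR2 labels. MetRS, alpha-PheRS and GluProRS are lower and AsnRS-m and GluRS-m higher in all 3 libraries labelled CR32027-IR1 than in any OreR library.

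The remaining 16 cytosolic genes had log2 changes from -0.15 for AsnRS to 0.23 for HisRS in this comparison, and their 95% intervals reached from -0.27 to 0.38. HisRS, the histidine enzyme, was 16.7 ± 0.726 RPKM in OreR and 19.7 ± 1.30 in the CR32027-IR1-labelled libraries (adjusted p = 0.0548). It shares 255 exon bases on the same strand of the X chromosome with Bx, the locus of the GAL4 driver, and reads of the 2 genes may not be separable there. The other 12 mitochondrial genes ran from -0.25 for SerRS-m to 0.22 for TyrRS-m, with intervals from -0.46 to 0.38. TyrRS-m, the mitochondrial tyrosine enzyme, was 8.79, 8.02 and 7.96 RPKM in OreR and 9.55, 9.31 and 10.5 in the CR32027-IR1-labelled libraries, apart but not called (adjusted p = 0.0723). Over all 33 genes the libraries of both genotypes stood apart in 15, where 30.9% of all genes tested did so.

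Next, CR32027-IR2, the genotype with less CR32027, was compared with OreR. CysRS and ThrRS, for cysteine and threonine, were higher, 2 of 19 cytosolic genes, and no mitochondrial gene was called by limma. Of all genes tested 5.15% were called here (2.93% higher and 2.22% lower). At an unadjusted p under 0.05 there were 4 cytosolic and 2 mitochondrial genes, and limma voom on the recovered reads called 1 cytosolic and 0 mitochondrial genes. Omitting CR32027-IR1 replicate 2 gave 1 called mitochondrial gene. The median log2 change was 0.04 for the cytosolic genes, -0.02 for the mitochondrial ones and -0.02 for all genes.

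ThrRS was 76.9, 79.3 and 81.0 RPKM in OreR, 89.5, 89.0 and 90.8 in CR32027-IR2 and 83.2, 82.7 and 87.0 in the CR32027-IR1-labelled libraries. The 3 genotypes did not overlap, with OreR lowest. Its level in CR32027-IR2 was 114% of that in OreR (log2 change 0.18 ± 0.0407; limma, adjusted p = 0.0365). For CysRS the values were 28.5, 29.2 and 30.2 RPKM in OreR, 33.8, 34.0 and 32.5 for CR32027-IR2 and 30.2, 30.6 and 29.3 in the CR32027-IR1-labelled libraries. CR32027-IR2 was above the other 6 libraries, which overlapped. The log2 change of CysRS was 0.18 ± 0.0430 (limma, adjusted p = 0.0433). Both calls were lost without CR32027-IR1 replicate 1 (0.0693 for ThrRS and 0.0786 for CysRS), without CR32027-IR2 replicate 1, 2 or 3 (0.111, 0.112 and 0.131 for ThrRS, 0.142, 0.168 and 0.0821 for CysRS) and without OreR replicate 1, 2 or 3 (0.127, 0.122 and 0.0593 for ThrRS, 0.144, 0.148 and 0.0603 for CysRS). Without an intensity trend both also missed (0.0566 and 0.0596), as did ThrRS with voom (0.0518) and CysRS among genes of at least 5 RPKM (0.0528). With replicate number fitted as a block ThrRS (0.115) and CysRS (0.150) missed as well.

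The largest difference in size from OreR among the genes not called was that of SerRS-m, the mitochondrial serine enzyme. SerRS-m was 19.4, 20.8 and 17.2 RPKM in OreR, 15.8, 14.4 and 15.1 in CR32027-IR2 and 16.3, 13.9 and 17.6 in the CR32027-IR1-labelled libraries. CR32027-IR2 lay below OreR, and the CR32027-IR1-labelled libraries overlapped both. The log2 change in CR32027-IR2 was -0.32 ± 0.0914 (95% interval -0.53 to -0.12; limma, adjusted p = 0.0843), and SerRS-m shares 356 exon bases with Nagk on the other strand, a gene at 1.11 RPKM in OreR. MetRS stood at 110% of OreR (log2 change 0.13; adjusted p = 0.198) and alpha-PheRS at 101% (0.01; adjusted p = 0.955). The 17 cytosolic genes that were not called had log2 changes from -0.05 to 0.18, with 95% intervals from -0.14 to 0.33. Libraries of both genotypes stood apart in 10 of the 33 genes, against 28.1% of all genes tested.

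**Figure D4:**
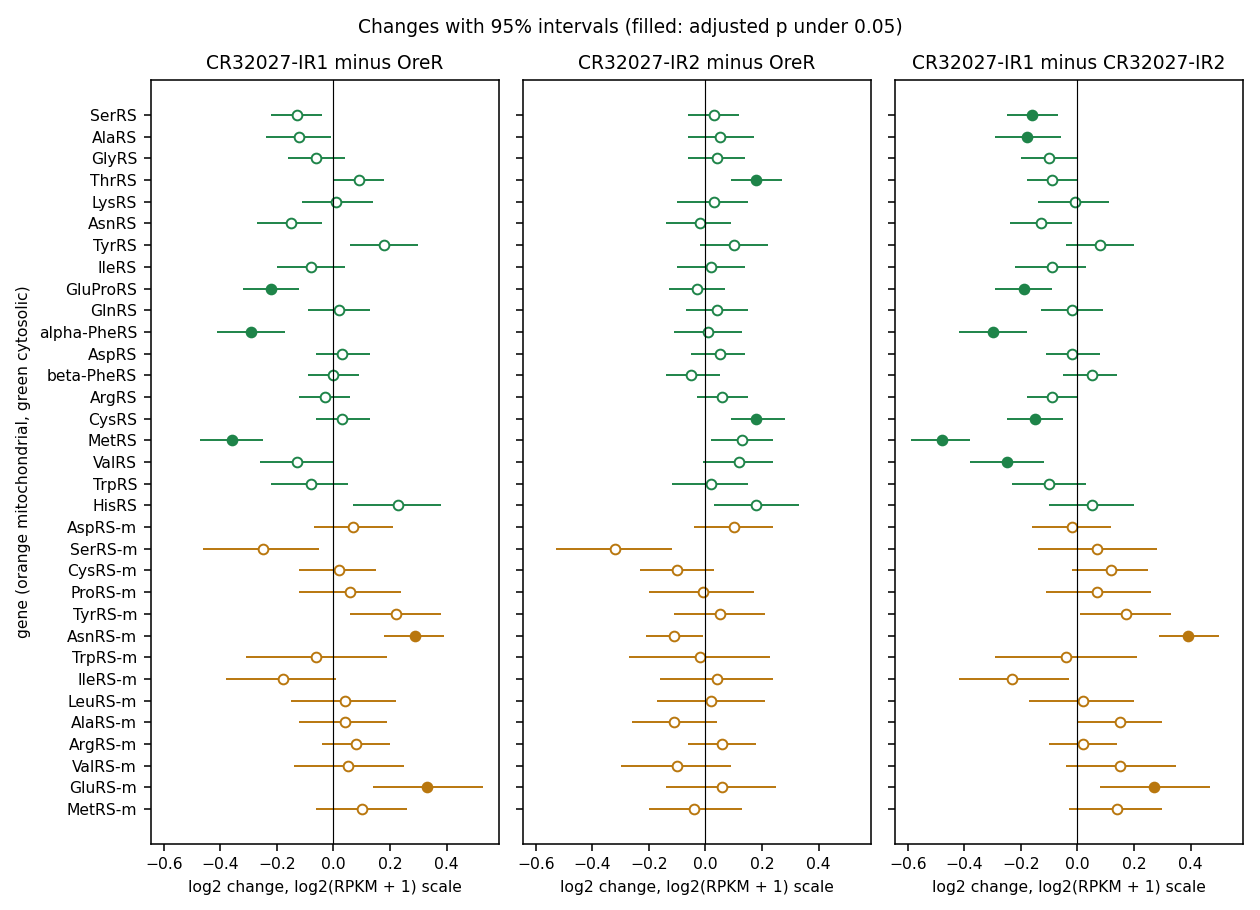
Log2 change of every synthetase gene in the 3 comparisons, on the log2(RPKM + 1) scale, with 95% intervals from limma (green cytosolic, orange mitochondrial; filled where adjusted p is under 0.05). MetRS has the lowest change, -0.36 from OreR and -0.48 between the hairpin genotypes, and AsnRS-m the highest between the hairpin genotypes, at 0.39.

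The hairpin genotypes were also compared directly, in the same fit, so that the OreR libraries enter its estimate of the spread. The CR32027-IR1-labelled libraries had lower MetRS, alpha-PheRS, ValRS, GluProRS, AlaRS, SerRS and CysRS and higher AsnRS-m and GluRS-m than CR32027-IR2. That is 7 of 19 cytosolic genes lower and 2 of 14 mitochondrial genes higher, where 9.57% of all genes tested were called lower, 12.3% higher and 21.9% in either direction. The cytosolic count fell to 2 on omitting CR32027-IR2 replicate 1 and to 4 on omitting CR32027-IR2 replicate 2 or 3 or CR32027-IR1 replicate 1. The median log2 difference was -0.10 for the cytosolic genes, 0.10 for the mitochondrial ones and 0.03 for all genes. Negative differences were found for 16 of 19 cytosolic genes and positive ones for 11 of 14 mitochondrial genes. The signs over all genes tested were not counted. Whether the lower level of the mitochondrial genes has a part in this pattern was not tested.

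MetRS differed most, at 70.6% of its CR32027-IR2 level (log2 difference -0.48 ± 0.0483; limma, adjusted p = 0.000312). AsnRS-m was at 136% (0.39 ± 0.0458; adjusted p = 0.000637) and alpha-PheRS at 80.9% (-0.30 ± 0.0534; adjusted p = 0.00490). ValRS, the valine enzyme, was 27.3, 26.1 and 27.4 RPKM in CR32027-IR2, 22.7, 24.2 and 20.7 in the CR32027-IR1-labelled libraries and 24.4, 25.4 and 24.5 in OreR. The genotypes did not overlap and OreR lay between the hairpin genotypes (log2 difference -0.25 ± 0.0572; adjusted p = 0.0149). GluProRS differed by -0.19 ± 0.0436 (adjusted p = 0.0142). Without CR32027-IR2 replicate 1 neither ValRS (0.0516) nor GluProRS (0.0578) passed, and without CR32027-IR2 replicate 3 ValRS did not (0.0544). GluProRS also missed with replicate number fitted as a block (0.0523).

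AlaRS and SerRS, for alanine and serine, are among the 3 most abundant members on the exonic scale. AlaRS was 100, 108 and 97.0 RPKM in the CR32027-IR1-labelled libraries, against 117, 114 and 114 for CR32027-IR2, with OreR at 107, 110 and 115 (log2 difference between the hairpin genotypes -0.18; limma, adjusted p = 0.0341). SerRS was 101, 102 and 105 RPKM, 115, 117 and 112, and 111, 111 and 115 in the same order (-0.16; adjusted p = 0.0215). In both genes the hairpin genotypes stood apart, and in SerRS the CR32027-IR1-labelled libraries were also below OreR. The CysRS difference was -0.15 (adjusted p = 0.0352) and that of GluRS-m 0.27 (adjusted p = 0.0494). These 4 calls depended on the fit. With only the hairpin genotypes fitted, none of them passed (adjusted p = 0.0620 for AlaRS, 0.0548 for SerRS, 0.0676 for CysRS and 0.0656 for GluRS-m). With replicate number fitted as a block none passed either (0.0931, 0.0825, 0.103 and 0.110 in the same order). GluRS-m was also lost with a pseudocount of 0.1 (0.0539), no filter (0.0824), rescaled libraries (0.0575) and voom (0.0607). For AlaRS the adjusted p rose to 0.110 on omitting CR32027-IR1 replicate 1, 0.0731 on omitting its replicate 3, 0.108, 0.0849 and 0.0791 on omitting CR32027-IR2 replicate 1, 2 and 3 in turn, and 0.0545 on omitting OreR replicate 2. For CysRS the same omissions gave 0.0870, 0.0688, 0.110, 0.115, 0.0586 and 0.0563. SerRS missed the threshold once CR32027-IR1 replicate 1 (0.0827), CR32027-IR2 replicate 1 (0.0701) or CR32027-IR2 replicate 2 (0.0861) was omitted. GluRS-m missed it once CR32027-IR1 replicate 1 (0.120), CR32027-IR1 replicate 3 (0.111), CR32027-IR2 replicate 1 (0.138), CR32027-IR2 replicate 3 (0.150), OreR replicate 1 (0.0537) or OreR replicate 3 (0.0667) was omitted.

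All 7 measured members of the multisynthetase complex had negative differences between the hairpin genotypes, from -0.48 for MetRS to -0.01 for LysRS, and 2 of them were called. Among the 12 cytosolic genes outside the complex 5 were called and 9 had negative differences. By catalytic class, 3 of 8 class I and 3 of 10 class II cytosolic genes were called, GluProRS belonging to both classes. All these calls were lower, as were 9.57% of all genes tested, and differences between the subgroups were not tested. Libraries of the hairpin genotypes stood apart in 16 of the 33 genes, against 39.3% of all genes tested.

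For 13 amino acids a cytosolic and a mitochondrial gene were both measured, with GluProRS serving in the glutamate and in the proline pair. Between the hairpin genotypes the mitochondrial gene had the higher log2 difference in 11 of 13 pairs, the exceptions being aspartate and isoleucine. Against OreR this held in 10 of 13 pairs for the CR32027-IR1-labelled libraries and in 4 of 13 for CR32027-IR2. The comparisons share libraries and are not independent of each other. In the asparagine pair AsnRS was 76.8, 79.0 and 76.6 RPKM in OreR and 67.8, 66.5 and 74.6 in the CR32027-IR1-labelled libraries (log2 change -0.15; adjusted p = 0.0735), while AsnRS-m rose. In the methionine pair MetRS fell and MetRS-m went from 2.25 ± 0.0692 to 2.48 ± 0.129 RPKM (0.10; adjusted p = 0.402). The isoleucine, serine and cysteine pairs went the other way. IleRS was at -0.08 and IleRS-m at -0.18 (limma, adjusted p = 0.374 and 0.193). SerRS was at -0.13 and SerRS-m at -0.25 (limma, adjusted p = 0.0627 and 0.0993). CysRS and CysRS-m were close, at 0.03 and 0.02. No pair's difference between compartments was tested.

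**Figure D5:**
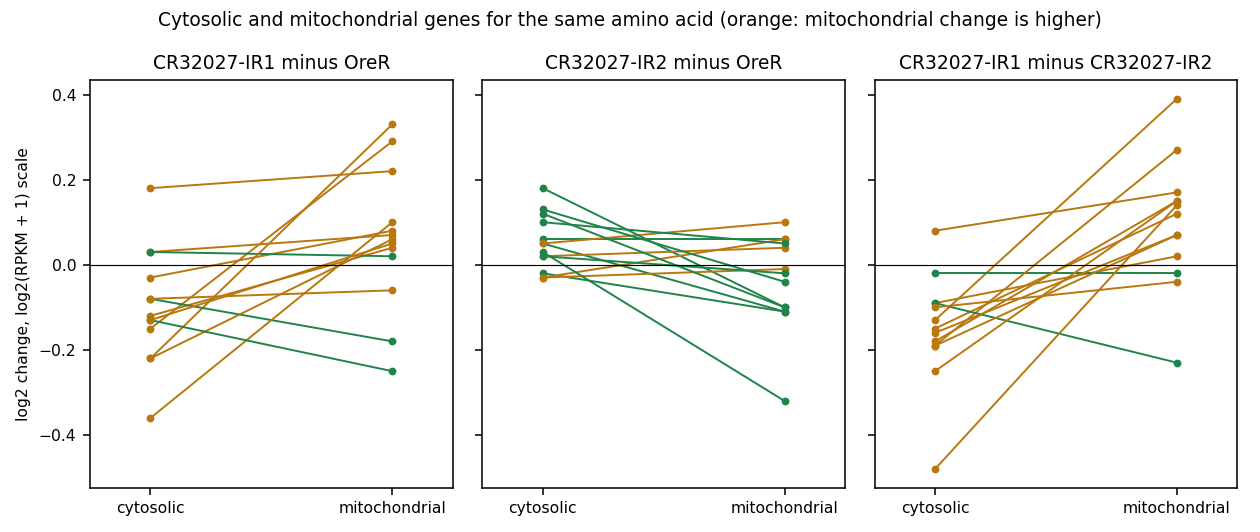
Log2 change of the cytosolic (left) and the mitochondrial gene (right) for the same amino acid, on the log2(RPKM + 1) scale, in each comparison; orange lines mark pairs with the higher change in the mitochondrial gene. The mitochondrial change is higher in 10, 4 and 11 of 13 pairs from left to right.

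Other genes of tRNA charging were read in the same fit. The scaffold genes AIMP1, AIMP2 and AIMP3, and Slimp, a mitochondrial protein related to seryl-tRNA synthetase, gave no call in any comparison, with log2 changes from OreR between -0.13 and 0.08. GatB, a subunit of the mitochondrial amidotransferase that finishes glutamine tRNA charging, was called in both comparisons with OreR, where it stood at 9.26 ± 0.162 RPKM. It fell to 6.36 ± 0.275 in the CR32027-IR1-labelled libraries (limma, adjusted p = 0.000710), and CR32027-IR2 held 6.60 ± 0.0979 (adjusted p = 0.00127). GatA and GatC, its partner subunits, did not pass in either comparison (adjusted p from 0.194 to 0.880). Lower calls were thus 1 of 3 listed genes in each comparison, against 7.61% and 2.22% of all genes tested. GluRS-m, which supplies the substrate of that enzyme, was called against OreR only in the CR32027-IR1-labelled libraries. That call was lost in 8 of 17 alternative fits. In CR32027-IR2 the log2 change of GluRS-m was 0.06 (limma, adjusted p = 0.811). A link between GluRS-m and GatB was not tested.

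Among elongation factors, which bring charged tRNA to the ribosome, 4 of 7 listed cytosolic genes were tested. eEF1beta fell from 1069 ± 58.2 to 823 ± 83.2 RPKM in the CR32027-IR1-labelled libraries (limma, adjusted p = 0.0118) and eEF1gamma from 1081 ± 43.8 to 897 ± 64.5 (adjusted p = 0.0257), and neither was called in CR32027-IR2 (0.0722 and 0.551). Of 8 mitochondrial translation factor genes tested there, 2 fell and 2 rose. For both lists the background in this comparison is the 7.61% of all genes called lower and 6.09% called higher, and lists this short give only coarse shares. mEFTu1, the mitochondrial elongation factor Tu, fell from 65.1 ± 3.85 to 40.5 ± 5.80 RPKM (adjusted p = 0.00317) and its exchange factor mEFTs from 35.5 ± 1.86 to 30.2 ± 0.472 (adjusted p = 0.0419). mEFG1, the translocation factor, rose from 11.7 ± 0.508 to 14.1 ± 0.877 RPKM (adjusted p = 0.0241) and the release factor mRF1 from 3.82 ± 0.244 to 5.38 ± 1.05 (adjusted p = 0.0455).

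The amino acid stress list, with the eIF2 kinases Gcn2 and PEK and targets of ATF4, had 1 of 12 tested genes lower in the CR32027-IR1-labelled libraries and 1 lower in CR32027-IR2, against 7.61% and 2.22% of all genes tested. Between the hairpin genotypes 1 was higher and 1 lower, against 12.3% and 9.57%. Counts of 1 gene do not set the list apart. PEK, the kinase that answers unfolded proteins in the endoplasmic reticulum, fell from 27.2 ± 0.964 to 19.0 ± 2.70 RPKM in the CR32027-IR1-labelled libraries (limma, adjusted p = 0.00634). In CR32027-IR2 PEK was 30.4 ± 0.635 (adjusted p = 0.413), and the call there was CG11899, matched as the phosphoserine aminotransferase Psat, from 134 ± 5.29 to 118 ± 1.38 (adjusted p = 0.0494). crc, the fly ATF4, was 169 ± 5.50 RPKM in OreR, 170 ± 6.85 in the CR32027-IR1-labelled libraries (adjusted p = 0.945) and reached 186 ± 9.76 with the second hairpin, CR32027-IR2 (adjusted p = 0.204). Among the 10 tRNA processing genes tested Elp2 was lower in the CR32027-IR1-labelled libraries than in OreR (log2 change -0.28; limma, adjusted p = 0.00793). The median log2 change of this list was 0.03 there and 0.02 between the hairpin genotypes. Of all genes tested 7.61% and 9.57% were called lower in these comparisons. Elp2 was not called in CR32027-IR2 (-0.08; adjusted p = 0.508). Between the hairpin genotypes Elp2 and the tRNA methyltransferase gene Nsun2 were lower in the CR32027-IR1-labelled libraries (log2 difference -0.21 and -0.23; adjusted p = 0.0195 and 0.0205), and mEFTu1, mEFTs, mEFG1 and mRF1 differed there in the same directions as from OreR.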

How the data were processed

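Per the labels' protocols, 100 ng of total RNA went into each stranded mRNA library. CASAVA 1.8.2, TopHat2 and dm3 appear in the submitters' processing notes without a stated role. The counter, its strand setting and the annotation were not given in the sources used here. RPKM is the unit deposited by the authors, for 15682 genes in 9 libraries.

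Symbols were matched by identifier for 15002 genes, and coordinates are those of the BDGP6 annotation. Reads and depth were recovered from the steps between values: for 7889 of 7902 genes tried (99.8%) some length turned the values of all libraries into whole reads, to within 0.01 read. For 78.2% of 7077 genes with introns this length lay within 2% of the genomic span and for 2.30% within 2% of the exonic length.

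RPKM values are not counts, so limma 3.58.1 in R 4.3.3 was fitted with an intensity trend to log2(RPKM + 1) of the 7437 genes averaging 1 RPKM or more, all 9 libraries at once (6 residual degrees of freedom). This scale understates changes of low genes. Benjamini-Hochberg adjustment ran over all genes, with a threshold of 0.05. Alternatives covered the pseudocount, filters, scaling, trend, array weights (gene by gene, since the default did not converge), libraries fitted, a replicate block, limma voom on recovered reads and leaving out each library. Genes given by value in every library are those called in any comparison, plus the mitochondrial genes with the smallest p up to 4; beta-PheRS and AsnRS were added after their values were seen. Genes of other lists are named where called, except 1 result of the tRNA processing list that is not reported here, and AIMP1, AIMP2, AIMP3, Slimp, GatA, GatC and crc beside them. The members and lists were chosen with earlier results of these data known. Python 3.11.15, numpy 2.4.6, pandas 2.3.3 and matplotlib 3.10.9 were used for read recovery and figures. Depth was 25070343 to 36512316 reads per library, and synthetase genes held 112 to 14960 reads each.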

Additional observations from a re-analysis of the deposited data

Results flagged for a closer look

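In 9 synthetase genes the change from OreR differed between the hairpin genotypes by the direct test of that difference (limma, adjusted p under 0.05). That is 27.3% of the 33 genes, where 21.9% of all genes tested were called between these genotypes, so the pooled share is near the background. By compartment, 36.8% of the cytosolic genes were lower, against 9.57% of all genes tested. Of the mitochondrial genes 14.3% were higher, against 12.3%. The cytosolic count of 7 fell to 2 on omitting CR32027-IR2 replicate 1, and the difference between compartments was not tested. The log2 difference, the libraries labelled CR32027-IR1 minus CR32027-IR2, was -0.48 for MetRS, -0.30 for alpha-PheRS, -0.25 for ValRS, -0.19 for GluProRS, -0.18 for AlaRS, -0.16 for SerRS and -0.15 for CysRS. It was 0.39 for AsnRS-m and 0.27 for GluRS-m.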

How the results depend on the processing

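MetRS, alpha-PheRS and AsnRS-m kept their direction and passed under all 18 alternatives, both for the libraries labelled CR32027-IR1 against OreR and between the hairpin genotypes. No call reversed its direction under any alternative. Called genes are counted here as cytosolic, then mitochondrial. In the libraries labelled CR32027-IR1 against OreR (3 and 2 as reported) array weights gave 8 and 4, and the mitochondrial count was 1 with no filter, with genes of at least 5 RPKM, with only these genotypes fitted and with the replicate block. The cytosolic count was 2 with the replicate block and 4 with no filter, with genes of at least 5 RPKM and with voom. Leaving out a library gave 3 to 5 and 1 to 2. In CR32027-IR2 against OreR (2 and 0) the cytosolic count was 1 with genes of at least 5 RPKM or voom and 0 without a trend or with the replicate block, and the mitochondrial count was 1 with array weights or only these genotypes. Leaving out a library gave 0 to 2 and 0 to 1. Between the hairpin genotypes (7 and 2) the cytosolic count was 12 with array weights, 4 with only these genotypes and 3 with the replicate block. The mitochondrial count there was 4 with array weights and 1 with a pseudocount of 0.1, with no filter, with genes of at least 5 RPKM, with rescaled libraries, with only these genotypes, with the replicate block and with voom. Leaving out a library gave 2 to 7 and 1 to 3. The filter of at least 5 RPKM kept 10 of the 14 mitochondrial genes. It removed GluRS-m, at a mean of 2.81 RPKM over all libraries, so GluRS-m was not tested under it. The cause of the other shifts was not tested. Same-numbered libraries had correlations of deviations from -0.24 to 0.12, and other-numbered libraries from -0.19 to 0.27. No shared effect of the replicate number was seen. With 3 libraries per genotype this cannot tell whether same-numbered libraries were prepared together. The ratio of cytosolic to mitochondrial medians was 6.91 in RPKM and 7.52 per exonic kilobase. GluRS-m, at 112 reads in its lowest library, is the member whose depth limits it most.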
